A study of Homo sapiens with 15 samples.

Results

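The direct p53 response genes described here are 10 genes that p53 is known to switch on by binding near them: CDKN1A, GADD45A, PLK2, BTG2, MDM2, TP53I3, SESN1, ZMAT3, GDF15 and TP53INP1. They were chosen by symbol, with earlier results of these data known. Each gene was read from its probe set with the highest mean over all arrays. Of the 10 genes, 8 were found among the 11963 genes measured. BTG2 and TP53INP1 have no probe set that the annotation used here assigns to that gene alone, and they were not analysed. The samples are total RNA of MCF-10A, a cell line of human breast epithelium that is immortal but does not form tumours, collected 48 hours after infection with a retrovirus or an adenovirus. Which virus served which experiment is not stated.

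The knockdown arm held 2 arrays each of cells given a short hairpin RNA (shRNA) against all p63 isoforms through the DNA-binding domain (shDBD), an shRNA against the isoforms with the transactivating domain (shTA), and the shRNA vector. The overexpression arm held 3 arrays each of cells given the isoform ΔNp63α, the isoform TAp63γ, or the overexpression vector. The promoter of the overexpression vector and the number of hairpins per target are not stated. The replicates are labelled biological without saying whether each was its own infection, so the p-values cover only the spread among these arrays, which may be technical. The level of p63 itself was not analysed here, and the group labels were taken as given.

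p63 and p53 are related transcription factors that read the same kind of DNA element, 2 adjoining copies of a 10-base half-site. TA isoforms of p63 carry an N-terminal transactivation domain like that of p53, while ΔN isoforms lack it and can occupy p53 elements without activating in the same way. ΔNp63α is the main form in basal mammary cells, the layer that MCF-10A cells resemble. The products of these target genes include proteins that halt the cell cycle, limit oxidative stress, or feed back on p53.

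Values are log2 expression per probe set after RMA, and a difference of 1 on this scale is a doubling. A change was called where limma's test, run over all 11963 genes of a comparison, gave a Benjamini-Hochberg adjusted p under 0.05. The 8 measured epithelial markers lay high on every array, and KRT5 never fell below percentile 98.5 of its array. Of the markers of other cell types, LUM and LYZ lay at the bottom of the arrays, at or under a log2 level of 4.08, while CD14 reached at least 8.34 and COL1A1 at least 7.71 on every array. Replicates correlated at r of 0.9976 to 0.998 in the knockdown arm and 0.9925 to 0.9979 in the overexpression arm, the lowest value being that of ΔNp63α replicates 1 and 3. Without ΔNp63α replicate 3, the number of the 8 genes called was the same as with it in all 6 comparisons. The arms have different array medians (7.19 to 7.21 and 6.95 to 6.98), so levels were compared only within an arm.

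Promoter sequence is shown first for PLK2, SESN1 and MDM2, because the 250 bases before one of their RefSeq start sites hold, among the genes listed, a full p53 half-site (PLK2 and SESN1) or the best-matching pairs of half-sites (SESN1 and MDM2). RefSeq (GRCh38.p14) gave 14 promoters for 8 of the 10 genes. GADD45A and TP53INP1 had no promoter entry and were not searched, while BTG2 was. Both strands were searched for the p53 half-site and for 2 half-sites that abut, scored by how many of 20 positions match, so a pair can contain a full half-site. In PLK2 (chr5:58460189-58460238, minus strand) the capitals mark a full half-site, at -132 to -123 from the start. In SESN1 (chr6:109008998-109009057, minus strand) they mark a pair that matches at 17 positions, at -49 to -30 from 1 of its 3 starts, and holds a full half-site. In MDM2 (chr12:68808903-68808962, plus strand) they mark a pair that matches at 18 positions, at -94 to -75 from 1 of its 4 starts and -101 to -82 from another.
PLK2: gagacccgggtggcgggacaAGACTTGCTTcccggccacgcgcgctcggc
SESN1: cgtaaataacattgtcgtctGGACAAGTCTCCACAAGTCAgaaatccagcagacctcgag
MDM2: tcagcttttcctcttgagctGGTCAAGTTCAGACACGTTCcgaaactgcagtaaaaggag
Of 35116 promoters of the same length, 5.57% hold a full half-site, 4.36% hold a pair matching at 17 or more positions and 0.561% at 18 or more. The best pairs of PLK2, CDKN1A, TP53I3, GDF15 and BTG2 match at 15 positions and that of ZMAT3 at 16, which 64.5% and 22.1% of all promoters reach. A match describes the letters and is not evidence of binding.

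The 8 genes divided by treatment. With shDBD, 5 rose (CDKN1A, PLK2, TP53I3, SESN1 and ZMAT3) and 1 fell (GADD45A), where 21.3% of all genes were called, 11.1% higher and 10.2% lower. With shTA only GDF15 was called, lower, where 2.29% of all genes were called, 1.44% higher and 0.853% lower. With ΔNp63α, 6 fell and PLK2 rose, where 28.9% of all genes were called, 16.6% lower and 12.3% higher. With TAp63γ, 6 rose and 0 were called lower, where 43.4% of all genes were called, 20.5% higher and 22.8% lower. At an unadjusted p under 0.05, which limma gave before adjustment, the number of the 8 genes was 6 with shDBD, 3 with shTA, 7 with ΔNp63α and 6 with TAp63γ. It was 7 for shDBD against shTA and 8 for ΔNp63α against TAp63γ. The share of all genes under this unadjusted threshold was not computed, so these counts cannot be set against the shares above. The median change of the 8 genes was 0.54 with shDBD, -0.09 with shTA, -0.55 with ΔNp63α and 1.10 with TAp63γ, on a scale where the median of all genes lay between -0.02 and 0.00. The arrays of a treatment did not overlap those of its vector for all 8 genes with shDBD (61.7% of all genes), 7 with shTA (50.7% of all genes), 7 with ΔNp63α (36.5% of all genes) and 6 with TAp63γ (49.9% of all genes).

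**Figure D1:**
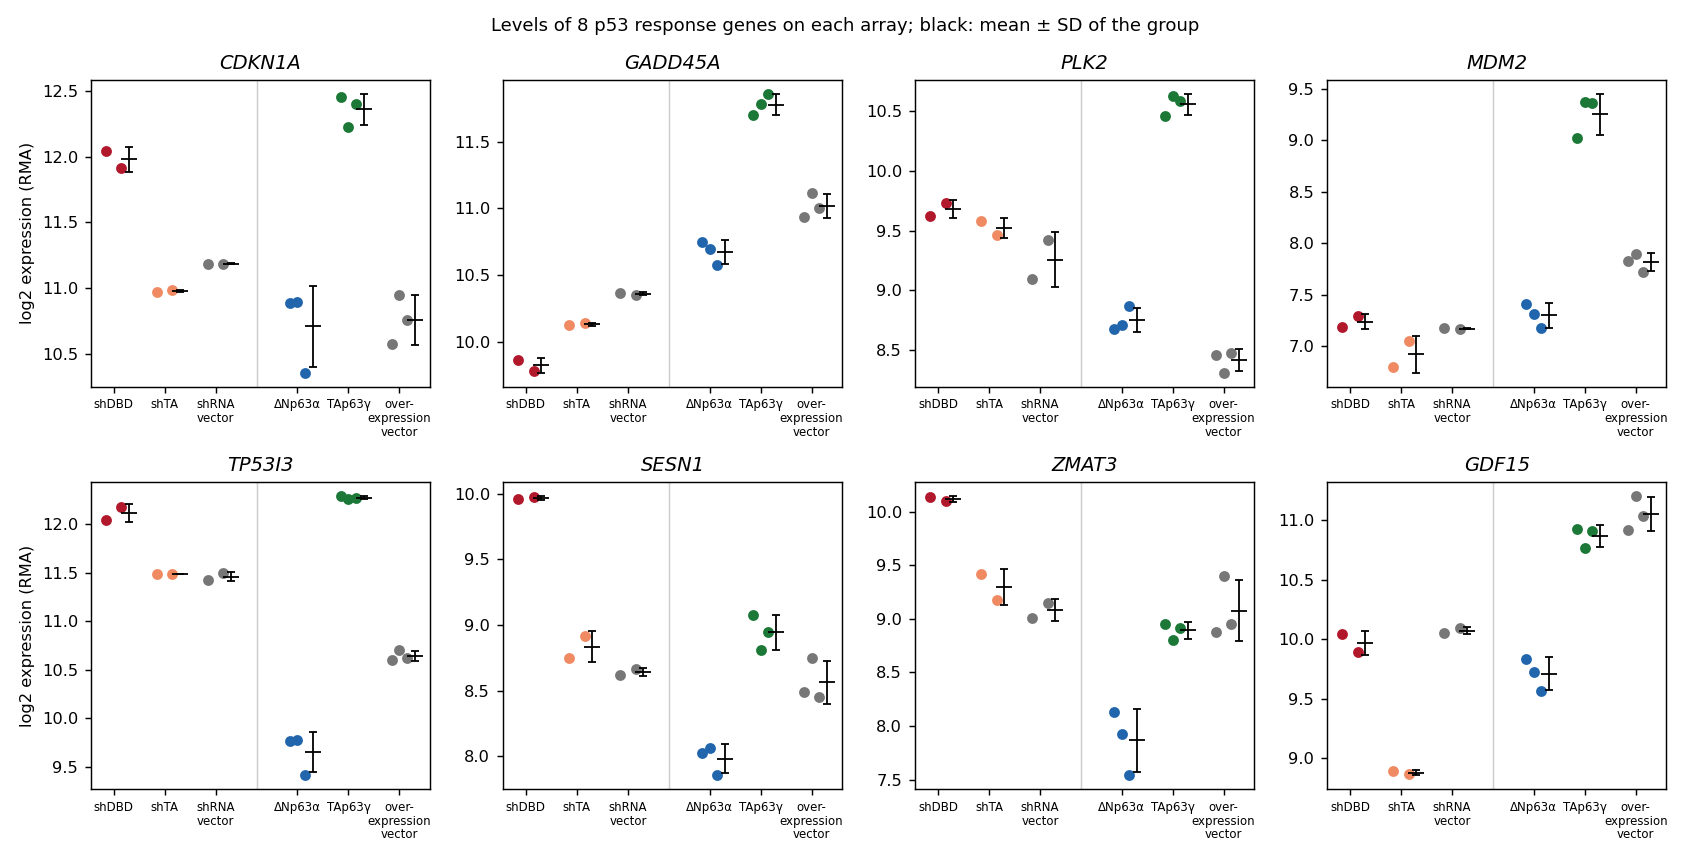
Log2 expression of each of the 8 genes on every array, with knockdown groups left of the grey line and overexpression groups right of it; points are arrays and black bars the group mean ± SD. TAp63γ arrays stand above the vector arrays for CDKN1A, GADD45A, PLK2, MDM2, TP53I3 and SESN1, and ΔNp63α arrays stand below them for GADD45A, MDM2, TP53I3, SESN1, ZMAT3 and GDF15.

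CDKN1A encodes p21, the inhibitor of cyclin-dependent kinases through which p53 stops the cell cycle. Its log2 level was 12.04 and 11.91 with shDBD, 10.97 and 10.99 with shTA, and 11.19 and 11.19 with the shRNA vector. Both shDBD arrays stood above all others of the arm, and both shTA arrays stood slightly below the vector arrays. CDKN1A rose 1.73-fold with shDBD (log2 change 0.79 ± 0.15 SE, n = 2 each, adjusted p = 0.00148). The difference with shTA was not called (-0.21 ± 0.15, 95% interval -0.54 to 0.12, adjusted p = 0.653), and shDBD exceeded shTA by 1.0 ± 0.15 (adjusted p = 0.00026).

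In the overexpression arm CDKN1A had a log2 level of 10.89, 10.89 and 10.36 with ΔNp63α, 12.45, 12.23 and 12.40 with TAp63γ, and 10.57, 10.95 and 10.76 with the vector. The TAp63γ arrays lay far above both other groups, which overlapped each other, and ΔNp63α replicate 3 was the lowest array. CDKN1A rose 3.03-fold with TAp63γ (1.60 ± 0.13, n = 3 each, adjusted p = 5.1e-08). It was the only one of the 8 genes not called with ΔNp63α (-0.05 ± 0.13, 95% interval -0.32 to 0.22, adjusted p = 0.836), and this difference was 0.13 without ΔNp63α replicate 3.

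GADD45A, a stress protein that binds PCNA and promotes DNA repair and growth arrest, was the only one of the 8 genes called lower with shDBD. Its log2 level was 9.87 and 9.79 with shDBD, 10.13 and 10.14 with shTA, and 10.37 and 10.35 with the vector. The groups did not overlap, with shDBD lowest and the vector highest. GADD45A fell with shDBD by 0.54 ± 0.089 on the log2 scale (1.45-fold, adjusted p = 0.000367), whereas with shTA the difference was -0.23 ± 0.089 (adjusted p = 0.248). shDBD lay below shTA (-0.31 ± 0.089, adjusted p = 0.023), a call lost without any single array of these 4 (adjusted p up to 0.148, and 0.00453 to 0.148 over all alternatives).

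With ΔNp63α the log2 level of GADD45A was 10.75, 10.70 and 10.58, with TAp63γ 11.70, 11.78 and 11.86, and with the vector 10.93, 11.11 and 11.00. The vector arrays lay between the treated groups without overlapping either. GADD45A fell with ΔNp63α (-0.34 ± 0.072, adjusted p = 0.00195) and rose 1.69-fold with TAp63γ (0.76 ± 0.072, adjusted p = 3.91e-07).

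PLK2, a polo-like kinase that acts in centriole duplication and is induced by p53 after DNA damage, rose with both p63 isoforms. It was the only gene of the 8 to do so, and 8.29% of all genes had that pair of calls. MDM2, TP53I3, SESN1 and GADD45A, 4 of the 8 genes, fell with ΔNp63α and rose with TAp63γ, as 1.12% of all genes did. These comparisons share the vector arrays. The log2 level of PLK2 was 8.68, 8.71 and 8.87 with ΔNp63α, 10.45, 10.63 and 10.58 with TAp63γ, and 8.46, 8.31 and 8.48 with the vector. No groups overlapped, and TAp63γ stood far above the others. The 4.4-fold rise with TAp63γ (2.14 ± 0.095, adjusted p = 6.74e-11) was the largest change from vector among the 8 genes. The rise with ΔNp63α was 1.26-fold (0.34 ± 0.095, adjusted p = 0.0141), and it was not called without vector replicate 2 (adjusted p = 0.0604, in a range of 0.00461 to 0.0604 over all alternatives).

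In the knockdown arm PLK2 had a log2 level of 9.62 and 9.73 with shDBD, 9.58 and 9.46 with shTA, and 9.09 and 9.42 with the vector. Vector replicate 1 was the lowest array by a wide margin. The change with shDBD was 1.34-fold (0.42 ± 0.12, adjusted p = 0.0164) and was not called without vector replicate 1 (0.26, adjusted p = 0.249) or without shDBD replicate 2 (adjusted p = 0.124), in a range of 0.00659 to 0.249 over all alternatives. Neither shTA against vector (0.27 ± 0.12, adjusted p = 0.331) nor shDBD against shTA (0.15 ± 0.12, 95% interval -0.09 to 0.40) was called.

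MDM2 encodes the ubiquitin ligase that marks p53 for destruction and closes the feedback loop. Its log2 level on the chosen probe set was 7.41, 7.31 and 7.17 with ΔNp63α, 9.02, 9.37 and 9.36 with TAp63γ, and 7.82, 7.89 and 7.72 with the vector. All ΔNp63α arrays lay below and all TAp63γ arrays above the vector arrays. MDM2 fell 1.43-fold with ΔNp63α (-0.52 ± 0.10, adjusted p = 0.00133) and rose 2.7-fold with TAp63γ (1.44 ± 0.10, adjusted p = 1.94e-08).

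With the hairpins the log2 level of MDM2 was 7.18 and 7.29 for shDBD and 6.79 and 7.05 for shTA, against 7.17 and 7.16 for the vector. The groups did not overlap, but the shTA arrays differed from each other by as much as their mean differed from the vector. Neither hairpin gave a called change from vector (0.07 ± 0.13 for shDBD, 95% interval -0.20 to 0.34, and -0.25 ± 0.13 for shTA), so of the genes that rose with TAp63γ, MDM2 was the only one not called with shDBD. shDBD against shTA gave 0.32 ± 0.13 (adjusted p = 0.108), a value that was called when the arms were fitted separately (adjusted p = 0.0316) and reached 0.543 at the other end of the alternatives.

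MDM2 had 5 probe sets, whose changes were compared with p-values adjusted over all probe sets. Of the other 4, the first changed by -0.65 with ΔNp63α and 1.5 with TAp63γ, the second by -0.47 with ΔNp63α and 1.10 with TAp63γ, and the third by -0.59 with ΔNp63α and 0.60 with TAp63γ. These 6 changes were called and ran in the same directions as on the chosen probe set. The last probe set was not called in any comparison, and none of the 5 was called in the knockdown arm. The first lay below the 20th percentile of its array on 6 arrays, which include all 3 ΔNp63α arrays, and the third on 3 knockdown arrays. A level there is not shown to be above background, so the size of the first probe set's fall with ΔNp63α is uncertain.

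TP53I3, a quinone oxidoreductase linked to reactive oxygen species, gave the widest gap between the isoforms. Its log2 level was 9.77, 9.78 and 9.42 with ΔNp63α, 12.29, 12.26 and 12.27 with TAp63γ, and 10.60, 10.70 and 10.62 with the vector. The groups were far apart, and the spread within TAp63γ was very small. TP53I3 fell 1.98-fold with ΔNp63α (-0.99 ± 0.086, adjusted p = 3.96e-07) and rose 3.1-fold with TAp63γ (1.63 ± 0.086, adjusted p = 5.06e-10). ΔNp63α against TAp63γ was 6.14-fold lower (-2.62 ± 0.086, adjusted p = 1.04e-11).

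In the knockdown arm TP53I3 had a log2 level of 12.05 and 12.18 with shDBD, 11.49 and 11.49 with shTA, and 11.43 and 11.49 with the vector. The shDBD arrays stood clear of the rest, and the shTA arrays overlapped the vector arrays. TP53I3 rose 1.57-fold with shDBD (0.65 ± 0.10, adjusted p = 0.000286), while shTA differed from vector by 0.03 ± 0.10 (95% interval -0.19 to 0.25, adjusted p = 0.949).

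SESN1 encodes sestrin 1, which dampens mTORC1 signalling and oxidative stress. It had the largest rise of the 8 genes with shDBD, at log2 levels of 9.96 and 9.98 with shDBD, 8.75 and 8.92 with shTA, and 8.62 and 8.67 with the vector. The shDBD arrays were more than a log2 unit above every other array of the arm. The rise with shDBD was 2.51-fold (1.32 ± 0.12, adjusted p = 1e-06), and shDBD was 2.19-fold above shTA (1.13 ± 0.12, adjusted p = 6.45e-06). shTA against vector was not called (0.19 ± 0.12, adjusted p = 0.555).

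In the overexpression arm the log2 level of SESN1 was 8.03, 8.06 and 7.86 with ΔNp63α, 9.08, 8.81 and 8.95 with TAp63γ, and 8.49, 8.75 and 8.45 with the vector. The lowest TAp63γ array lay just above the highest vector array. SESN1 fell 1.5-fold with ΔNp63α (-0.58 ± 0.097, adjusted p = 0.000279) and rose 1.3-fold with TAp63γ (0.38 ± 0.097, adjusted p = 0.00455), the smallest rise among the 6 genes called there.

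ZMAT3, a zinc-finger RNA-binding protein that acts in splicing and mRNA stability, had log2 levels of 10.14 and 10.10 with shDBD, 9.42 and 9.18 with shTA, and 9.01 and 9.15 with the vector. Only shDBD stood clearly apart. ZMAT3 rose 2.06-fold with shDBD (1.04 ± 0.18, adjusted p = 0.000508), and the shTA difference of 0.22 ± 0.18 was not called (adjusted p = 0.695). shDBD against shTA was 1.77-fold (0.82 ± 0.18, adjusted p = 0.00389) and was not called without shTA replicate 2 (adjusted p = 0.0559, in a range from 2.27e-05).

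With ΔNp63α ZMAT3 had log2 levels of 8.13, 7.93 and 7.54, with TAp63γ 8.96, 8.80 and 8.92, and with the vector 8.88, 9.40 and 8.95. The ΔNp63α arrays lay below all others, and the TAp63γ and vector arrays overlapped. ZMAT3 fell 2.31-fold with ΔNp63α (-1.21 ± 0.15, adjusted p = 1.2e-05). With TAp63γ the difference was -0.18 ± 0.15 (95% interval -0.49 to 0.13, adjusted p = 0.35).

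GDF15 encodes a secreted cytokine of the TGF-β superfamily that cells release under stress, and it is a target of ATF4 as well as of p53. Its log2 level was 10.04 and 9.89 with shDBD, 8.89 and 8.86 with shTA, and 10.05 and 10.09 with the vector. The shTA arrays were about a log2 unit or more below every other array of the arm. GDF15 fell 2.28-fold with shTA (-1.19 ± 0.11, adjusted p = 2.02e-05), while shDBD, which also targets the TA isoforms, differed from vector by -0.10 ± 0.11 (95% interval -0.34 to 0.13, adjusted p = 0.61). The difference between the hairpins was itself called (shDBD 2.13-fold above shTA, 1.09 ± 0.11, adjusted p = 4.8e-06).

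In the overexpression arm the log2 level of GDF15 was 9.84, 9.73 and 9.56 with ΔNp63α, 10.92, 10.76 and 10.91 with TAp63γ, and 10.92, 11.20 and 11.03 with the vector. The ΔNp63α arrays lay below all others. GDF15 fell 2.53-fold with ΔNp63α (-1.34 ± 0.090, adjusted p = 2.38e-08), the largest fall from vector among the 8 genes. TAp63γ differed from vector by -0.18 ± 0.090 (95% interval -0.38 to 0.01, adjusted p = 0.117). A second GDF15 probe set stayed between 4.72 and 5.15, below the 20th percentile on 14 of 15 arrays, and was called in no comparison.

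Of 12 genes of the ATF4 stress response, 11 were measured and are set beside GDF15. With shTA 2 fell and 0 rose (18.2% called, 2.29% of all genes): CHAC1, an enzyme that degrades glutathione, by 1.01 ± 0.13, and TRIB3, a pseudokinase, by 0.68 ± 0.085. With shDBD 6 fell and 2 rose (72.7% called, 21.3% of all genes), and asparagine synthetase (ASNS) fell by 2.02 ± 0.11, although GDF15 was not called there. With ΔNp63α 7 fell and 2 rose (81.8% called, 28.9% of all genes), and NUPR1, a stress-induced nuclear protein, fell by 2.10 ± 0.13. With TAp63γ 9 fell and 1 rose (90.9% called, 43.4% of all genes), and ASNS fell by 2.87 ± 0.090. Of the 11, 2 were higher and 6 lower with shDBD than with shTA (72.7% called, 18.4% of all genes), and 8 were higher and 1 lower with ΔNp63α than with TAp63γ (81.8% called, 39.8% of all genes). ATF4 itself fell by 0.66 ± 0.083 with shDBD (adjusted p = 2.98e-05) and by 0.86 ± 0.068 with TAp63γ (adjusted p = 5.1e-08). It was not called with shTA (-0.29 ± 0.083, adjusted p = 0.0948) or ΔNp63α (-0.08 ± 0.068, adjusted p = 0.441).

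**Figure D2:**
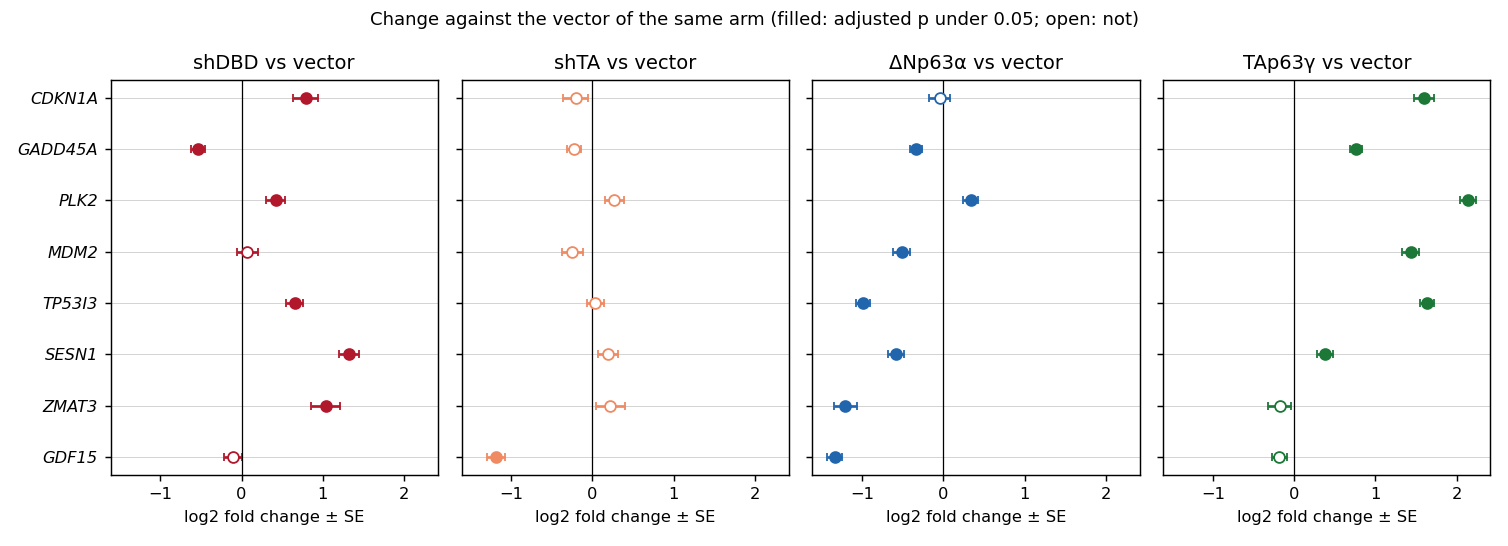
Log2 fold change of the 8 genes against the vector of the same arm, with bars of ± 1 SE; filled points have an adjusted p under 0.05. SESN1 has the largest rise with shDBD (1.32), GDF15 the only called change with shTA (-1.19), and PLK2 the largest rise with TAp63γ (2.14).

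Setting the arms side by side, which share no arrays, TP53I3, SESN1 and ZMAT3 rose with shDBD and fell with ΔNp63α. These are 3 of the 8 genes, and 2.76% of all genes had that pair of calls. In contrast, PLK2 rose with both shDBD and ΔNp63α, and GADD45A fell with both. The share of all genes with those pairs of calls was not computed. CDKN1A, PLK2, TP53I3 and SESN1 rose with both shDBD and TAp63γ, 4 of the 8 genes, and 4.06% of all genes did so. GADD45A fell with shDBD and rose with TAp63γ. The calls of PLK2 with shDBD and with ΔNp63α were lost when certain single arrays were left out, as given above. The 3′ minus 5′ log2 signal of the actin control, a sign of RNA quality, averaged 0.067 ± 0.026 with shDBD, 0.10 ± 0.14 with shTA and -0.087 ± 0.0098 with the shRNA vector (SD, n = 2 each). In the overexpression arm it was 0.162 ± 0.059 with ΔNp63α, 0.077 ± 0.066 with TAp63γ and 0.170 ± 0.058 with the vector (SD, n = 3 each). The mean log2 level of the 8 epithelial markers was 11.79 to 11.81 on shDBD arrays and 12.18 to 12.24 on shRNA vector arrays. On shTA arrays it was 12.01 to 12.09. The mean of the 4 immune markers measured was 6.54 to 6.64 on shDBD arrays and 6.18 to 6.24 on shRNA vector arrays. On shTA arrays it was 6.21 to 6.31. Of these 4 markers, CD14 varied most over all arrays, from 8.34 to 10.44. PTPRC ranged from 5.28 to 6.05, CD3D from 5.81 to 6.23 and LYZ from 3.57 to 4.08. With TAp63γ the epithelial mean was 12.00 to 12.12, against 11.66 to 11.89 with the vector. The immune mean was 5.86 on each TAp63γ array, against 5.96 to 6.05 with the vector. With ΔNp63α the epithelial mean was 11.72 to 11.96 and the immune mean 5.87 to 6.01. The part of these shifts in the changes of the p53 response genes was not tested.

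Comparing the treatments of an arm directly, all 8 genes were lower with ΔNp63α than with TAp63γ, where 39.8% of all genes were called, 20.6% lower and 19.2% higher. The differences ranged from -0.96 ± 0.097 for SESN1 to -2.62 ± 0.086 for TP53I3. Between them stood PLK2 (-1.80 ± 0.095), MDM2 (-1.95 ± 0.10), CDKN1A (-1.65 ± 0.13), GDF15 (-1.16 ± 0.090), GADD45A (-1.10 ± 0.072) and ZMAT3 (-1.03 ± 0.15). The groups overlapped for none of the 8 genes, where 45.8% of all genes did not overlap. Between shDBD and shTA, 5 genes were higher and GADD45A lower, where 18.4% of all genes were called, 9.14% higher and 9.23% lower. These groups did not overlap for any of the 8 genes, as for 60.3% of all genes. CDKN1A, TP53I3, SESN1, ZMAT3 and GDF15 were higher with shDBD than with shTA and lower with ΔNp63α than with TAp63γ, a pair of calls that 4.27% of all genes had.

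**Figure D3:**
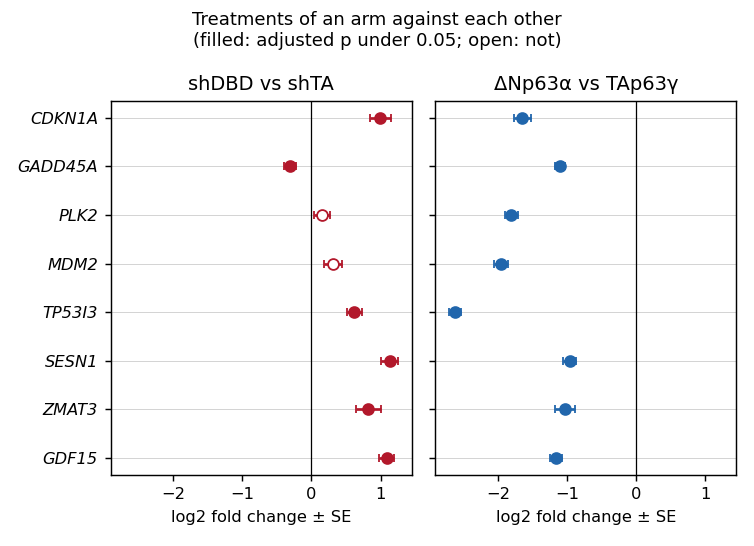
Log2 fold change of the 8 genes between the treatments of an arm, shDBD over shTA on the left and ΔNp63α over TAp63γ on the right, with bars of ± 1 SE; filled points have an adjusted p under 0.05. All 8 points on the right are filled and below 0, and TP53I3 is the lowest (-2.62).

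Beyond the 10 genes, a list of 63 other p53 targets had 49 members measured. With shDBD 17 rose and 7 fell (49% called, 21.3% of all genes), with a median change of 0.07. BAX, which permeabilizes mitochondria in apoptosis, rose 2.82-fold (1.49 ± 0.19, adjusted p = 2.69e-05). BCL6, a transcriptional repressor, rose by 1.10 ± 0.15, the ribosomal-like protein RPS27L by 0.89 ± 0.091, and PPM1D, a phosphatase that turns p53 signalling off, by 0.84 ± 0.18. DDB2, a DNA-damage sensor, had -0.40 ± 0.14 (adjusted p = 0.0535). Against shTA, BAX was higher by 1.52 ± 0.19 with shDBD. In that comparison 18 of the 49 were higher and 5 lower (46.9% called, 18.4% of all genes).

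With shTA 2 of the 49 rose and 1 fell (6.12% called, 2.29% of all genes). The count was 6 without ΔNp63α replicate 3. It was lower than with all arrays when either shRNA vector replicate or shTA replicate 2 was left out. The receptor tyrosine kinase EPHA2 had -0.59 ± 0.098 (adjusted p = 0.00343), a call lost when shTA replicate 2 or shRNA vector replicate 2 was left out (adjusted p up to 0.0717, and from 0.000618 over all alternatives). BCL6 had 0.71 ± 0.15 (adjusted p = 0.0218, up to 0.183 over the alternatives). PTP4A1, a phosphatase, had 0.38 ± 0.071 on its chosen probe set and -0.32 on the probe set with the largest variance. PMAIP1, which encodes the apoptosis protein NOXA, had -0.47 ± 0.12 (adjusted p = 0.0599).

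With ΔNp63α 9 of the 49 rose and 12 fell (42.9% called, 28.9% of all genes). The median change of the 49 was 0.02, where that of the 8 direct response genes was -0.55. The antiviral protein TRIM22, which interferon also induces, rose 5.6-fold (2.48 ± 0.087, adjusted p = 9.75e-12). The growth factor TGFA rose by 1.06 ± 0.12 and the replication clamp PCNA by 1.0 ± 0.12, while the decoy death receptor TNFRSF10D fell by 1.21 ± 0.082. BAX had 0.42 ± 0.15 (adjusted p = 0.0532).

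With TAp63γ 23 of the 49 rose and 8 fell (63.3% called, 43.4% of all genes). The median change of the 49 was 0.17, where that of the 8 direct response genes was 1.10. PIDD1, a scaffold of caspase-2 activation, rose 4.85-fold (2.28 ± 0.10, adjusted p = 5.78e-11), beside 2.14 ± 0.095 for PLK2. TRIM22 rose by 1.59 ± 0.087, the carboxylesterase CES2 by 1.49 ± 0.084 and DRAM1, a lysosomal regulator of autophagy, by 1.42 ± 0.084. TRIAP1, an inhibitor of apoptosis, had -0.19 ± 0.074 (adjusted p = 0.055). ΔNp63α against TAp63γ left 23 lower and 7 higher (61.2% called, 39.8% of all genes), led by PIDD1 at -2.23 ± 0.10.

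**Figure D4:**
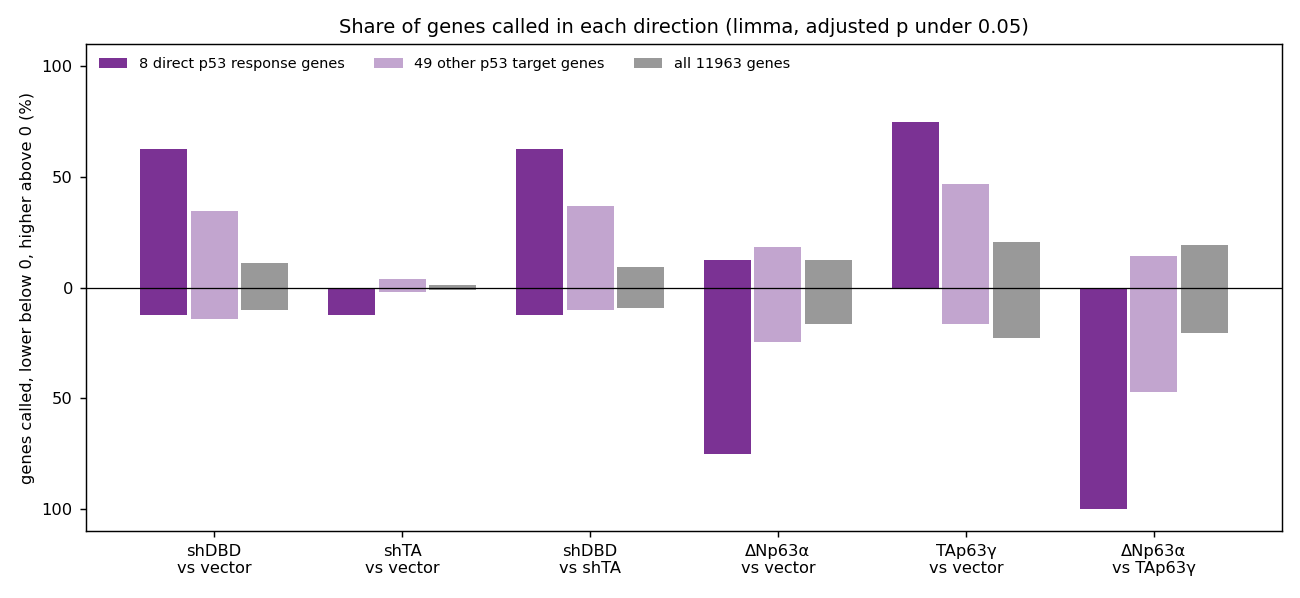
Share of genes called higher (bars above 0) and lower (bars below 0) in each comparison, for the 8 direct p53 response genes, the 49 other p53 targets and all 11963 genes. All 8 genes are lower with ΔNp63α than with TAp63γ, and the share called with shTA is the smallest of the 6 comparisons in each list shown.

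**Figure D5:**
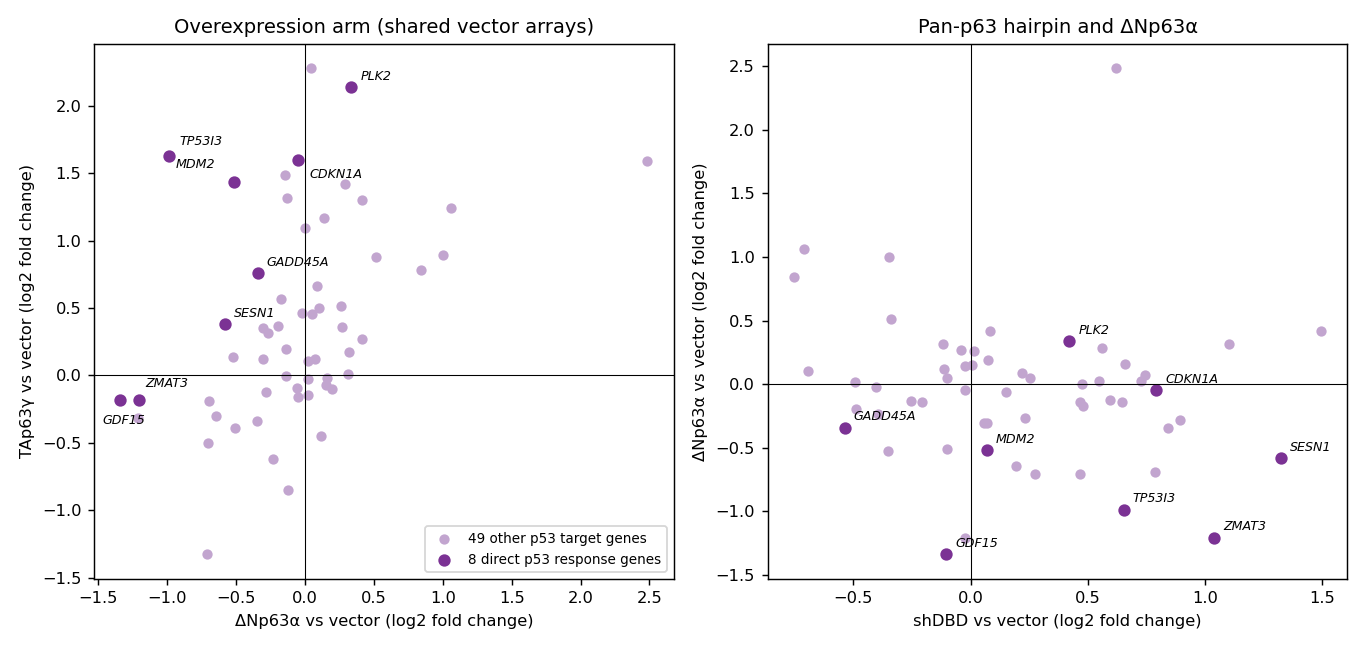
Log2 fold changes of the 8 direct p53 response genes (dark, named) and 49 other p53 targets (light): TAp63γ against ΔNp63α, both relative to the same vector arrays, on the left, and ΔNp63α against shDBD, each relative to its own vector, on the right. TP53I3, SESN1 and ZMAT3 lie at the lower right of the right panel, and PLK2 (2.14) lies near the top of the left panel.

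Of 22 family members and regulators of p53, 20 were measured. With shDBD 3 were called, 1 higher and 2 lower (15% of the list, 21.3% of all genes). The checkpoint kinase CHEK1 had -0.76 ± 0.10 on its chosen probe set and -0.50 on its probe set with the largest variance, where it was not called (adjusted p = 0.105). HIPK2, a kinase that phosphorylates p53, likewise had 1.10 ± 0.11 on its chosen probe set, but its probe set with the largest variance was not called (adjusted p = 0.738). CHEK2 had -0.28 ± 0.096 (adjusted p = 0.0492, up to 0.295 over the alternatives). With shTA only HIPK2 was called (0.86 ± 0.11, 5% of the list, 2.29% of all genes), and its probe set with the largest variance gave -0.02. SIRT1, a deacetylase of p53, was lower with shDBD than with shTA (-0.68 ± 0.19, adjusted p = 0.0217), a call lost without any single array of these 4 (adjusted p up to 0.116, and from 5.94e-05 over all alternatives).

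With ΔNp63α 2 regulators rose and 5 fell (35% of the list, 28.9% of all genes). CHEK2 rose by 0.46 ± 0.078 and the DNA-damage kinase PRKDC fell by 0.54 ± 0.085. CHEK1 had 0.59 ± 0.086, a call lost on its probe set with the largest variance (0.45, adjusted p = 0.0519). With TAp63γ 4 rose and 8 fell (60% of the list, 43.4% of all genes). TP73, the third member of the p53 family, rose 3.51-fold (1.81 ± 0.14, adjusted p = 3.33e-08), and PPP1R13L, an inhibitor of p53, rose by 0.97 ± 0.11. The damage kinase ATM fell by 0.89 ± 0.089 and SIRT1 by 0.75 ± 0.16. ΔNp63α against TAp63γ left 5 regulators higher and 4 lower (45% of the list, 39.8% of all genes), and shDBD against shTA left 0 higher and 3 lower (15% of the list, 18.4% of all genes). Apart from shTA and TAp63γ against vector, the list's shares lay near or below those of all genes. The mean log2 level of TP73 was 5.88 with ΔNp63α and 7.77 with TAp63γ (difference -1.89 ± 0.14, adjusted p = 4.45e-08).

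Finally, each gene was set against all other genes by the root mean square difference of log2 fold change over the 4 comparisons with a vector. The nearest gene to GADD45A was TXLNA (0.059) and that to PLK2 was MARK4 (0.072). CDKN1A was nearest to ASTN2 (0.157), MDM2 to PEA15 (0.174), SESN1 to ADCY9 (0.179), ZMAT3 to F8 (0.278), TP53I3 to ACTA2 (0.391) and GDF15 to PDGFA (0.401). For none of the 8 was another of the 8 the nearest gene. With only 7 others among 11963 genes, this says little about how alike the 8 are. The closest pair among them was TP53I3 and MDM2 (0.412), where MDM2 ranked 4 of all genes for TP53I3 and TP53I3 ranked 96 for MDM2. The nearest of the other 7 ranked 98 for CDKN1A (MDM2), 64 for PLK2 (CDKN1A) and 64 for ZMAT3 (SESN1). It ranked 156 for SESN1 (ZMAT3) and 2046 for GADD45A (MDM2). The most isolated of the 8 was GDF15, whose nearest of the other 7, GADD45A, ranked 3194. These values describe likeness over 4 changes, pairs of which share a vector group.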

How the data were processed

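The deposited values are log2 expression levels of probe sets, computed by the authors with RMA according to the submitters' processing notes. Its version, its settings and whether both arms were normalized jointly are not stated. RMA gives arrays processed together the same distribution of values, which would hide a shift of most transcripts, and it shrinks differences between low levels. Of 22277 probe sets, 19064 had 1 gene symbol in the platform annotation, 1043 had several, 2108 were not listed and 62 were controls. Each gene was represented by its probe set with the highest mean over all 15 arrays. A model with 6 group means was fitted to 11963 genes with limma 3.58.1 in R 4.3.3 (lmFit, then eBayes with a trend, 9 residual degrees of freedom), contrasts staying within an arm, with two-sided p-values adjusted by Benjamini-Hochberg over all genes of a comparison and a threshold of 0.05. The script was tested on simulated data. All members were named; from each other list, up to 4 called genes with the largest change and the 1 uncalled gene with the smallest p were chosen per comparison, with the nearest genes by pattern, and only some of these are printed. The members and lists were chosen with earlier results of these data known. Arrays have no read depth, so the number of arrays limits the precision. Alternatives were cyclic loess within an arm, quantile normalization of all arrays, other variance settings, other ways to choose a probe set, arms fitted separately, a filter on low levels, the replicate number as a block, and leaving out 1 array at a time. Detection calls were not used.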

Additional observations from a re-analysis of the deposited data

How the results depend on the processing

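Each result was recomputed under 11 other settings and without each of the 15 arrays. The number of the 8 genes called stayed within 1.5 times the reported number in all of these, at 5 to 6 with shDBD, 6 to 7 with ΔNp63α and 4 to 7 for shDBD against shTA. It was 1 with shTA, 6 with TAp63γ and 8 for ΔNp63α against TAp63γ under each of them. Of their 34 called changes, 30 kept call and direction throughout and 0 reversed; the other 4 are given beside the values above, and the cause was not tested.

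Some changes near 0 that were not called reversed sign, as did the called changes of HIPK2 and PTP4A1 with shTA. CDKN1A with ΔNp63α was 0.034 after cyclic loess and ran between -0.14 and 0.13 when 1 array was left out. On the same basis TP53I3 with shTA ran between -0.0019 and 0.064, DDIT3 with shDBD between -0.16 and 0.027, and VLDLR with TAp63γ between -0.083 and 0.097. EP300 with TAp63γ was 0.012 as the mean of its probe sets. With the largest-variance probe set, HIPK2 with shTA was -0.019 and PTP4A1 with shTA was -0.32, which shows that their probe sets differ.

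Replicate numbers did not pair the arrays: same-numbered arrays had deviations correlating at 0.0014 to 0.069 in the knockdown arm and -0.63 to 0.48 in the overexpression arm. Differently numbered overexpression arrays reached 0.68 (vector replicate 1 with ΔNp63α replicate 3) and -0.73 (vector replicate 2 with ΔNp63α replicate 3). Arrays of different groups thus shared deviations that the replicate number does not follow. A block on that number does not account for them. Vector replicate 1, ΔNp63α replicate 3 and TAp63γ replicate 2 correlated with each other at 0.55 to 0.68. Each had the highest actin 3′ minus 5′ signal of its group (0.235, 0.231 and 0.136). Vector replicate 2 (0.151) was not the lowest of its group, which was replicate 3 (0.124). The source of the shared deviations was not tested. With the replicate block the 8 genes had 6 calls with shDBD, 1 with shTA, 5 for shDBD against shTA, 7 with ΔNp63α, 6 with TAp63γ and 8 for ΔNp63α against TAp63γ. The gene lost was GADD45A for shDBD against shTA (adjusted p = 0.0592).

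Counts over longer lists moved more. For shTA, 274 of all genes were called, against 1064 with the arms fitted separately, 150 with the replicate block and 87 to 472 when 1 array was left out. For shDBD against shTA 2197 were called, against 3359 with the arms separate 1348 without shDBD replicate 1 and 1463 without shTA replicate 2. For shDBD 2543 were called, and 1650 without shRNA vector replicate 1. Other p53 targets called with shTA numbered 3, against 10 with the arms separate and 1 with the block. ATF4 stress genes called with shTA numbered 2, against 5 with the arms separate, 4 after quantile normalization and 5 without ΔNp63α replicate 3. With the largest-variance probe sets, 0 regulators were called with shDBD or shTA and 4 with ΔNp63α. With the arms separate, 5 were called with shDBD and 2 with shTA. For shDBD against shTA 1 was called without shDBD replicate 1 or shTA replicate 2.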
